A study of Penicillium oxalicum with 9 samples.

Results

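Messenger RNA levels were followed over a window of 41 neighbouring locus numbers, PDE_00780 to PDE_00820, in the filamentous fungus Penicillium oxalicum. The window holds all 41 rows of that range among the 9860 genes of the expression table, with no number missing, and all 41 passed the filter on low values that left 9099 genes for testing. The window was chosen by the FPKM values of a strain that lacks crzA against those of the other strains, as the longest stretch of neighbouring numbers with lower values there, with genes on both sides added as flanks. Every value of the deletion strain given here is therefore a description and no support for a response to crzA.

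There were 3 strains with 3 libraries each. The wild type was strain 114-2, the deletion strain lacked crzA, and in the recovery strain crzA had been put back. Mycelium of every strain was pre-cultured for 24 h at 30 °C with 2% starch, washed, moved to a new medium labelled with 2% starch and harvested 18 h later. The source label of every sample names glucose instead, and the conflict was not settled. The labels do not say how the gene was removed or put back, whether a strain is a single transformant, or whether the replicates were separate cultures. The p-values therefore reflect the spread among these libraries, and that spread may be technical. Mycelium is a mixture of hyphae of different age, and fewer cells of a kind and less RNA per cell cannot be told apart in it.

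CrzA belongs to the zinc finger transcription factors and serves the calcium response of fungi. When calcium rises in the cell, the phosphatase calcineurin removes phosphate groups from CrzA, which then enters the nucleus and acts on promoters. In filamentous fungi, genes that serve a common process, such as the synthesis of a secondary metabolite, often lie side by side and are transcribed together. The expression table names no gene, and its locus numbers had 0 matches in the reference table, which belongs to strain HP7-1. No role is therefore given to any gene of the window, and the level of crzA in each library was not analysed here. Neighbouring numbers are read as neighbouring rows, because coordinates of strain 114-2 were not used here.

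Levels are given in FPKM, which counts fragments per kilobase of a gene relative to all fragments of a library. The FPKM of a library summed to between 973798 and 1063502, and read numbers are unknown. Wild-type replicate 2 and deletion replicate 2 stood apart from the other libraries of their strains. Over all tested genes, the log2 difference between a pair of replicates had an SD of 0.672 to 0.758 where the pair held either of them and of 0.198 to 0.351 otherwise.

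The stretch began at PDE_00789, ended at PDE_00811 and held 23 genes without a gap. Each of the 23 was lower in the deletion strain than in both other strains (limma, Benjamini-Hochberg adjusted p under 0.05), a call that 9.35% of all tested genes received. In each of them all 3 deletion libraries lay below all 6 other libraries, as they did in 13.2% of all tested genes. Mean levels in the deletion strain were between 1.52% and 17.9% of the wild-type mean, with a median of 2.97%, and 21 of the 23 were under 10% of it, against 2.73% of all tested genes. In the recovery strain the means were between 83.4% and 171% of the wild-type mean. Of the summed FPKM of a library, the 23 genes held 0.767% ± 0.0649 in the wild type, 0.0289% ± 0.00428 in the deletion strain and 0.975% ± 0.127 in the recovery strain (SD, n = 3 each). The 18 flanking genes together took 0.318% ± 0.0635, 0.279% ± 0.0916 and 0.324% ± 0.0112. Most of this came from PDE_00780, with means of 1904, 1634 and 1864 FPKM, and PDE_00817, with 1087, 803.5 and 1108 FPKM. The share of the flanks therefore says little of the other flanking genes. Over the whole window, 24 of 41 genes were called lower than in the wild type and 25 lower than in the recovery strain, calls made for 11.1% and 16.1% of all tested genes. Higher calls numbered 1 and 0, against 15.0% and 15.4% of all tested genes, and in 0 of the 41 did all deletion libraries lie above the 6 others, against 16.7%. These shares and counts follow from the choice of the genes and add no support.

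**Figure D1:**
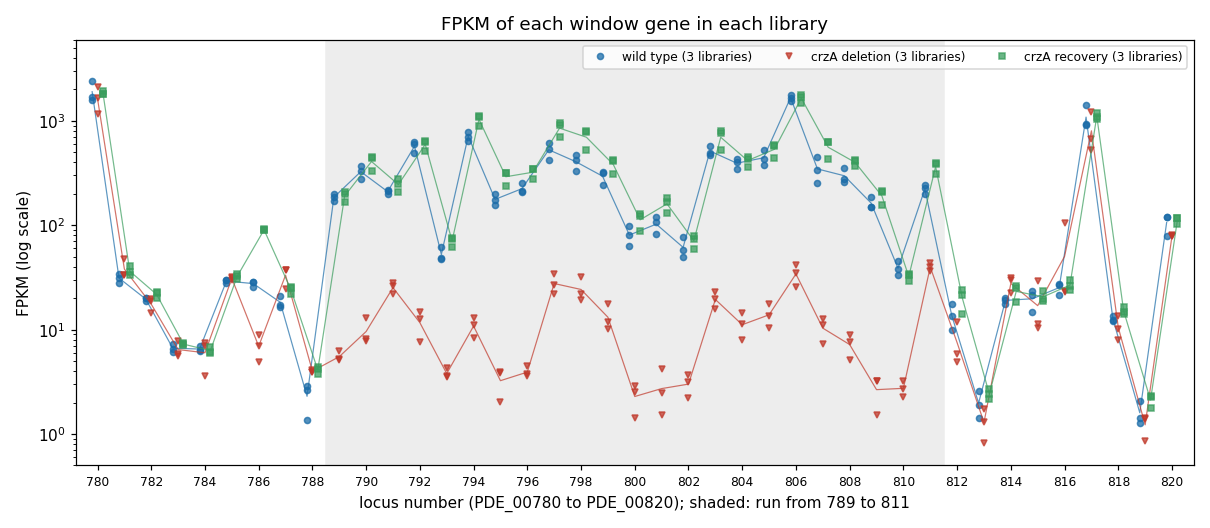
FPKM of the 41 genes of the window in each of the 9 libraries, on a log scale, against locus number, with lines through the strain means and the stretch from PDE_00789 to PDE_00811 shaded. Inside the shaded stretch every deletion library lies below every other library. Outside it PDE_00786 alone shows the same separation.

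The left edge was abrupt. Just outside it, PDE_00788 was a weakly expressed gene at 2.66, 1.37 and 2.87 FPKM in wild-type replicates 1, 2 and 3, at 3.96, 4.11 and 3.95 FPKM in the deletion libraries and at 4.43, 4.17 and 3.74 FPKM in the recovery libraries. The deletion values lay within the range of the recovery values and above all wild-type values. Just inside, PDE_00789 stood at 171, 187 and 199 FPKM in the wild type, at 5.25, 6.23 and 5.07 FPKM in the deletion strain and at 208, 199 and 166 FPKM in the recovery strain. The log2 change from wild type to deletion, on the log2(FPKM + 1) scale, was 0.63 ± 0.21 in PDE_00788 and -4.84 ± 0.14 in PDE_00789 (SE, limma). PDE_00788 was not called against the wild type, but was called higher in the deletion strain in 5 of 20 other settings, namely with a pseudocount of 5, TPM, quantile normalization, median centring or plain limma moderation, with log2 changes from 0.31 to 0.78.

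At the right edge the change from the wild type became smaller over several genes. PDE_00809, the third gene from the end, stood at 151, 151 and 187 FPKM in the wild type, at 1.53, 3.22 and 3.24 FPKM in the deletion strain and at 211, 207 and 156 FPKM in the recovery strain. PDE_00810 had 33.3, 37.8 and 45.4 FPKM in the wild type against 2.71, 3.24 and 2.28 FPKM in the deletion strain and 34.5, 33.1 and 29.4 FPKM in the recovery strain, the lowest wild-type and recovery means of the stretch. PDE_00811, the last gene inside, had 201, 225 and 241 FPKM in the wild type, 36.7, 39.5 and 43.1 FPKM in the deletion strain and 398, 385 and 309 FPKM in the recovery strain. It kept the highest mean of the stretch in the deletion strain. The log2 change from wild type to deletion was -5.52 ± 0.22 in PDE_00809, -3.41 ± 0.16 in PDE_00810 and -2.45 ± 0.15 in PDE_00811 (SE, limma). Against the recovery strain the changes were -5.739, -3.161 and -3.155, with hardly any difference between PDE_00810 and PDE_00811. A small change was not confined to this edge, since PDE_00791 near the left end had -3.01 against the wild type.

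PDE_00812, just outside, had 13.4, 9.92 and 17.8 FPKM in the wild type, 4.92, 11.8 and 5.81 FPKM in the deletion strain and 21.6, 23.8 and 14.0 FPKM in the recovery strain. Its deletion replicate 2 lay among the wild-type values, while deletion replicates 1 and 3 were below all 6 other libraries. The log2 change was -0.84 ± 0.33 against the wild type, which was not called, and -1.34 ± 0.33 against the recovery strain, which was called (SE, limma). Without deletion replicate 2 the gene was called lower against both strains, with a log2 change of -1.18 against the wild type, and the stretch then ran to PDE_00812 with 24 genes, as it did with array weights. Without both wild-type replicate 2 and deletion replicate 2 it ran to PDE_00813 with 25 genes. In these settings calls rose over the whole table. Genes called lower than in the wild type numbered 1601 of 9058 without deletion replicate 2 and 1834 of 9099 with array weights. Without both libraries they numbered 2319 of 9025, against 1012 of 9099 with the main settings. The genes added at this edge came with that general rise. The call of PDE_00812 against the recovery strain was lost without deletion replicate 1, deletion replicate 3, recovery replicate 1 or recovery replicate 2, with log2 changes from -1.27 to -1.12. The right end of the stretch therefore depended on the setting, while the left end was PDE_00789 in every setting for which the stretch was located. Why the right end moved was not tested.

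**Figure D2:**
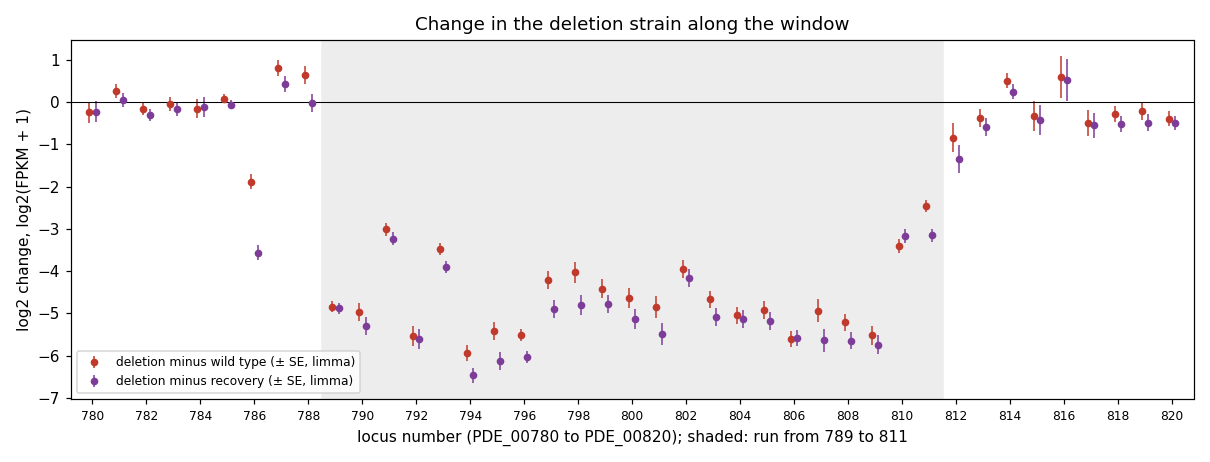
Log2 change of each of the 41 genes from the wild type and from the recovery strain to the deletion strain (points, with SE from limma), by locus number, with the stretch shaded. Changes inside the stretch lie between -6.47 and -2.45, drop to these values in a single step at PDE_00789 and return toward 0 over PDE_00810 to PDE_00812. Both sets of points share the deletion libraries.

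The genes of the stretch differed in how much of their level was left. On the log2(FPKM + 1) scale, where the added 1 shrinks the change of weakly expressed genes, 8 of the 23 lay at least 32-fold, 18 at least 16-fold, 22 at least 8-fold and all 23 at least 4-fold below the wild type. The median log2 change was -4.84 over the 23 genes and 0.06 over all tested genes. Against the recovery strain these medians were -5.13 and -0.02. Both comparisons share the deletion libraries.

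The first genes of the stretch already differed in this respect. PDE_00790 stood at 280.1, 369 and 329.9 FPKM in the wild type, at 8.21, 7.74 and 12.9 FPKM in the deletion strain and at 444, 447 and 333 FPKM in the recovery strain. PDE_00791 had 200.2, 218 and 213 FPKM in the wild type, 27.7, 22.1 and 26.0 FPKM in the deletion strain and 251, 277 and 209.8 FPKM in the recovery strain. PDE_00792 had 489, 607 and 622 FPKM in the wild type, 7.56, 12.6 and 14.9 FPKM in the deletion strain and 623, 648 and 516 FPKM in the recovery strain. The wild-type mean of PDE_00791 was thus 8.32 times its deletion mean, whereas this ratio was 34.0 in PDE_00790 and 49.0 in PDE_00792 beside it. The log2 change of PDE_00791 was -3.01 ± 0.15 against the wild type and that of PDE_00792 was -5.54 ± 0.23 (SE, limma).

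The next 4 genes held the steepest change of the window. PDE_00793 was among the weakest of the stretch at 48.7, 47.2 and 62.0 FPKM in the wild type, 3.52, 4.31 and 3.57 FPKM in the deletion strain and 76.3, 74.1 and 62.0 FPKM in the recovery strain. PDE_00794 had 646, 709 and 787 FPKM in the wild type, 8.33, 11.2 and 13.0 FPKM in the deletion strain and 1117, 1098 and 891 FPKM in the recovery strain. Its wild-type mean was 66.0 times and its recovery mean 95.6 times its deletion mean, the largest ratios of the 23, with log2 changes of -5.93 ± 0.18 and -6.47 ± 0.18 (SE, limma). PDE_00795 had 156, 174 and 201 FPKM in the wild type, 2.01, 3.92 and 3.81 FPKM in the deletion strain and 320.2, 315 and 240.2 FPKM in the recovery strain. PDE_00796 had 207, 212 and 254 FPKM in the wild type, 3.59, 3.74 and 4.44 FPKM in the deletion strain and 343, 345 and 278 FPKM in the recovery strain. In both, wild-type and deletion libraries were separated by a gap of more than an order of magnitude, and all recovery values lay above all wild-type values.

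From PDE_00797 to PDE_00799 more of the transcript was left in the deletion strain. PDE_00797 stood at 426, 619 and 542 FPKM in the wild type, at 26.6, 22.1 and 34.3 FPKM in the deletion strain and at 948, 909 and 699.7 FPKM in the recovery strain. PDE_00798 stood at 332, 472 and 418 FPKM in the wild type, at 19.2, 21.8 and 31.8 FPKM in the deletion strain and at 792, 777 and 524 FPKM in the recovery strain. PDE_00799 had 245, 316 and 325 FPKM in the wild type, 10.2, 11.8 and 17.5 FPKM in the deletion strain and 415, 419 and 313 FPKM in the recovery strain. These genes kept 5.23%, 5.96% and 4.46% of their wild-type means, above the median of the stretch, and deletion replicate 3 was the highest deletion library in each.

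A trough of lower levels followed in the middle, at PDE_00800 to PDE_00802. PDE_00800 had 63.1, 98.2 and 80.7 FPKM in the wild type, 1.44, 2.53 and 2.90 FPKM in the deletion strain and 122, 128 and 88.5 FPKM in the recovery strain, the lowest deletion mean of the stretch. PDE_00801 had 81.7, 119 and 107 FPKM in the wild type, 1.52, 2.50 and 4.16 FPKM in the deletion strain and 167, 183 and 131 FPKM in the recovery strain. PDE_00802 had 49.2, 77.5 and 57.6 FPKM in the wild type, 2.20, 3.66 and 3.17 FPKM in the deletion strain and 79.6, 74.3 and 59.0 FPKM in the recovery strain. All 3 lay below their neighbours PDE_00799 and PDE_00803 in every strain. Their log2 changes from wild type to deletion were -4.64, -4.84 and -3.95, within the range of the other genes.

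PDE_00803 to PDE_00805 stood together at intermediate to high levels. PDE_00803 had 475, 581 and 488 FPKM in the wild type, 15.8, 19.5 and 23.1 FPKM in the deletion strain and 807, 761 and 523 FPKM in the recovery strain. PDE_00804 had 342, 436 and 403 FPKM in the wild type, 7.96, 11.2 and 14.3 FPKM in the deletion strain and 432, 455 and 363 FPKM in the recovery strain. PDE_00805 had 375, 527 and 429 FPKM in the wild type, 10.5, 13.6 and 17.6 FPKM in the deletion strain and 584, 575 and 445 FPKM in the recovery strain. They kept between 2.84% and 3.79% of their wild-type means, close to the median of the stretch.

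PDE_00806 was the most abundant transcript of the stretch in the wild type and the recovery strain. It had 1662, 1564 and 1781 FPKM in the wild type, 25.7, 35.0 and 41.8 FPKM in the deletion strain and 1768, 1712 and 1473 FPKM in the recovery strain, with overlapping wild-type and recovery values. PDE_00807 had 257, 449 and 335 FPKM in the wild type, 7.22, 11.1 and 12.7 FPKM in the deletion strain and 627, 621 and 431 FPKM in the recovery strain. PDE_00808 had 260.3, 357 and 277 FPKM in the wild type, 5.08, 7.55 and 8.97 FPKM in the deletion strain and 413, 419 and 371 FPKM in the recovery strain. Log2 changes from wild type to deletion were -5.59 ± 0.19 in PDE_00806, -4.93 ± 0.27 in PDE_00807 and -5.21 ± 0.20 in PDE_00808 (SE, limma).

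Levels in the stretch kept much of their order between strains. Across the 23 genes, which are not independent replicates and share the 9 libraries, log2 mean FPKM in the wild type and the recovery strain correlated at r = 0.979 (Spearman rho 0.980). Wild-type and deletion means correlated at r = 0.753 (Spearman rho 0.733). PDE_00811 and PDE_00791 moved furthest up this order. PDE_00811 was 14th by mean FPKM in the wild type and the highest in the deletion strain, and PDE_00791 was 15th in the wild type and 4th in the deletion strain. Such orders compare genes per length and hold only as far as FPKM does so in tag libraries, which the labels describe.

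The difference between recovery strain and wild type did not enter the choice of the window, although its libraries did so through their comparisons with the deletion strain. Of the 23 genes of the stretch, 0 were called (limma, Benjamini-Hochberg adjusted p under 0.05), against 1.57% of all tested genes. At an unadjusted p under 0.05, 9 of the 23 were higher and 0 lower, against 9.53% and 4.68% of all tested genes. Log2 changes from wild type to recovery ranged from -0.25 to 0.77 with a median of 0.42, and 21 of 23 were above 0. Over all tested genes the median was 0.09 and 62.5% were above 0. The flanking genes had a median of 0.18, with 16 of 18 above 0. In 9 of the 23 genes all 3 recovery libraries lay above all 3 wild-type libraries, a separation found in 21.9% of all tested genes, and in 0 genes they lay below, against 8.17% of all tested genes. These 9 were PDE_00793 to PDE_00798, PDE_00801, PDE_00808 and PDE_00811. In PDE_00793 the separation was minimal, with 61.98 FPKM in the highest wild-type library and 62.00 in the lowest recovery library. The 23 genes share the same libraries and are not independent, so these counts are not separate observations.

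The largest of these differences were small beside those of the deletion strain. PDE_00798, at 407 ± 70.5 FPKM in the wild type and 698 ± 150.2 FPKM in the recovery strain (SD, n = 3 each), differed by 0.77 ± 0.24 on the log2 scale (SE, limma adjusted p = 0.182). PDE_00811, at 222 ± 20.1 FPKM and 364 ± 47.9 FPKM, differed by 0.70 ± 0.15 and lay closest to the threshold (limma adjusted p = 0.0578). PDE_00810 was at the other end, with 38.8 ± 6.11 FPKM in the wild type, 32.4 ± 2.64 FPKM in the recovery strain and a log2 difference of -0.25 ± 0.16 (limma adjusted p = 0.550). PDE_00806, the most abundant, stood at 98.9% of its wild-type mean with a log2 difference of -0.02 ± 0.19 (limma adjusted p = 0.979). How many of the 23 were called depended on the setting. Without both wild-type replicate 2 and deletion replicate 2, 7 of the 23 were called, all higher in the recovery strain. With array weights 15 were called. Calls rose over the whole table in these settings, from 143 of 9099 tested genes to 2544 of 9025 and to 2659 of 9099. The rise was thus present outside the stretch too, although with array weights the share called was larger in the stretch than over all tested genes. Whether the stretch rose more than other genes was not tested. PDE_00811 was called without wild-type replicate 2 alone, without deletion replicate 2 alone, and with all 9 libraries after rescaling to TPM. The median log2 change of the 23 stayed between 0.30 and 0.59 over the settings tried.

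**Figure D3:**
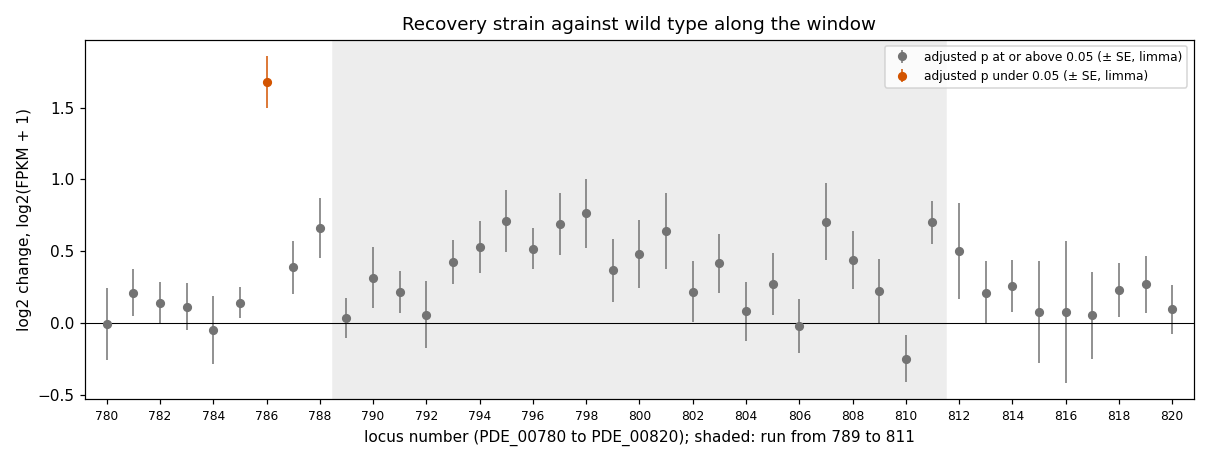
Log2 change from the wild type to the recovery strain for each of the 41 genes (points, with SE from limma), by locus number, with the stretch shaded and the gene with an adjusted p under 0.05 in orange. PDE_00786, outside the stretch, lies at 1.68, and the 23 genes of the stretch lie between -0.25 and 0.77.

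PDE_00786, 3 numbers before the stretch, was the gene of the window whose level in the recovery strain exceeded that of the wild type past the threshold. It stood at 28.9, 28.4 and 25.6 FPKM in the wild type, at 8.91, 4.87 and 7.04 FPKM in the deletion strain and at 90.0, 90.2 and 91.1 FPKM in the recovery strain. The 3 strains did not overlap, and the recovery mean was 327% of the wild-type mean. The log2 change from wild type to recovery was 1.68 ± 0.18 (SE, limma adjusted p = 0.00282), where 0.846% of all tested genes were called higher. It was past the threshold in all 21 other settings, with log2 changes from 1.55 to 1.71 and adjusted p from 1.09e-05 to 0.0258. The deletion strain lay at 25.1% of the wild-type mean, with log2 changes of -1.88 ± 0.18 against the wild type and -3.56 ± 0.18 against the recovery strain (SE, limma). It was the single flanking gene among 18 called lower against both.

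PDE_00787 and PDE_00788 separate PDE_00786 from the stretch, and neither was lower in the deletion strain. PDE_00787 had 16.4, 21.2 and 17.4 FPKM in the wild type, 37.7, 24.7 and 37.6 FPKM in the deletion strain and 25.1, 25.5 and 22.2 FPKM in the recovery strain. With all 9 libraries and the main settings it was the gene of the window called higher in the deletion strain than in the wild type, with a log2 change of 0.81 ± 0.19 (SE, limma). Deletion replicate 2 was lower than the other deletion libraries and fell among the recovery values. Without wild-type replicate 1 the call was lost, at a log2 change of 0.74. Without deletion replicate 2 the gene was also called higher than in the recovery strain, at a log2 change of 0.62.

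The remaining flanking genes were not called in the deletion strain with the main settings. From PDE_00780 to PDE_00785, log2 changes from wild type to deletion lay between -0.24 and 0.26 and none was called. These 6 genes included PDE_00780, the most abundant of the window, at 1594, 2426 and 1692 FPKM in the wild type, 1152, 2094 and 1656 FPKM in the deletion strain and 1818, 1948 and 1826 FPKM in the recovery strain. Its deletion and wild-type values overlapped, and replicate 2 was the highest library in both strains. After the stretch, PDE_00813 to PDE_00820 had log2 changes between -0.50 and 0.60 against the wild type. Against the recovery strain they lay between -0.60 and 0.52, and none was called against either strain. PDE_00813 had 1.91, 1.44 and 2.59 FPKM in the wild type, 0.830, 1.74 and 1.30 FPKM in the deletion strain and 2.68, 2.15 and 2.43 FPKM in the recovery strain, and was weakly expressed in all of them. PDE_00814 had 20.3, 17.5 and 19.4 FPKM in the wild type, 31.2, 22.3 and 29.8 FPKM in the deletion strain and 26.3, 25.0 and 18.5 FPKM in the recovery strain, with its deletion values above all wild-type values. The calls of these genes depended on the setting. PDE_00814 was called higher in the deletion strain than in the wild type in 4 of 21 other settings, among them without deletion replicate 2, at a log2 change of 0.65. PDE_00813 was called lower in the deletion strain than in the recovery strain in 5 of 20 other settings, among them without deletion replicate 2, at a log2 change of -0.73. Over all 18 flanking genes the median log2 change was -0.19 against the wild type and -0.27 against the recovery strain. The 2 sides differed. These medians were -0.05 and -0.11 over the 9 genes before the stretch and -0.34 and -0.49 over the 9 after it. After the stretch 7 of 9 were below 0 in each comparison, and before it 5 and 7 of 9. Over all tested genes the medians were 0.06 and -0.02, with 4130 and 4678 of 9099 below 0.

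Deletion replicate 2 was the highest deletion library in 7 of the 9 genes from PDE_00812 to PDE_00820, in 5 of the 9 before the stretch and in 38.0% of all tested genes. The most uneven was PDE_00816, with 23.6, 105 and 22.7 FPKM in the deletion libraries against 21.3, 27.1 and 27.6 FPKM in the wild type and 29.8, 24.0 and 26.3 FPKM in the recovery strain. PDE_00817 beside it had 528, 1209 and 674 FPKM in the deletion libraries, 919, 1413 and 931 FPKM in the wild type and 1090.3, 1191 and 1044 FPKM in the recovery strain, with replicate 2 the highest in both the deletion strain and the wild type. In the stretch, deletion replicate 2 was the highest deletion library in 5 of 23 genes and the lowest in 3, and its median deviation from the strain mean was 0.06 on the log2 scale. Without deletion replicate 2 the median log2 change of the stretch against the wild type was -4.85, and without both libraries that stood apart it was -4.75.

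Within each strain mostly the same library was the lowest from gene to gene of the stretch. The highest library varied in the wild type, where it was replicate 2 in 12 genes and replicate 3 in 11. In the recovery strain it was replicate 1 in 14 genes and replicate 2 in 9. Recovery replicate 3 was the lowest recovery library in all 23 genes, with a median deviation from the strain mean of -0.25 on the log2 scale, whereas it was the lowest in 51.6% of all tested genes and in 9 of the 18 flanking genes. Wild-type replicate 1 was the lowest wild-type library in 21 of 23 genes, with a median deviation of -0.19, against 38.6% of all tested genes and 7 of the 18 flanking genes. Deletion replicate 1 was the lowest deletion library in 18 of 23 genes and deletion replicate 3 the highest in 17, against 23.3% and 22.1% of all tested genes. Deletion replicate 1 minus deletion replicate 3 had a median of -0.68 on the log2 scale over the 23 genes. These counts describe libraries, 1 of each kind, and the neighbouring genes are not independent of each other.

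**Figure D4:**
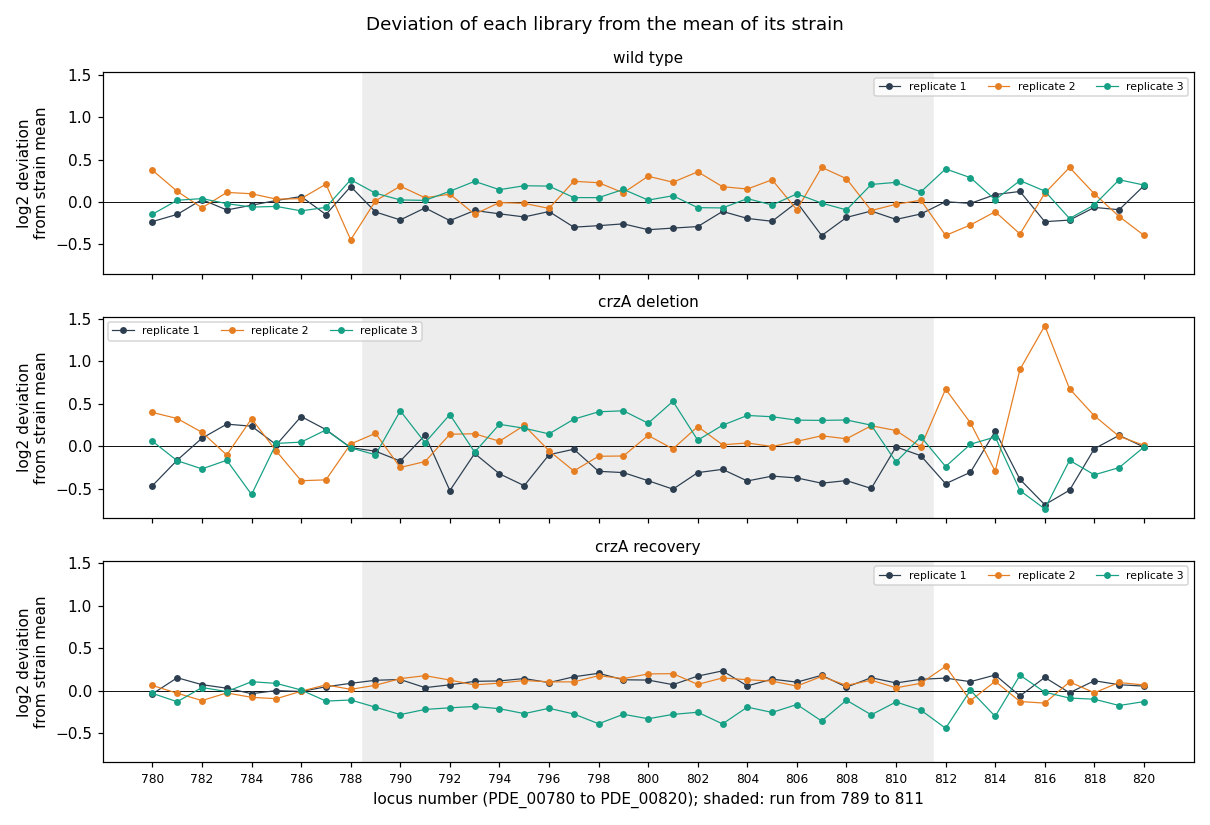
Deviation of each library from the mean of its strain, in log2(FPKM + 1), for each gene by locus number, with 1 panel per strain and the stretch shaded. Recovery replicate 3 lies below 0 across the whole shaded stretch, and deletion replicate 2 reaches 1.42 at PDE_00816, outside it.

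Over the whole table, runs of consecutive rows called lower in the deletion strain than in both others numbered 596, of which 456 were single genes and 3 held at least 10 genes. The stretch from PDE_00789 to PDE_00811 was the longest, as the choice of the window required, and held 2.70% of the 851 genes with that call. The next longest runs held 19 and 12 genes.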

How the data were processed

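All values came from 1 table of 9860 locus numbers with a column per library, matched to samples by name and grouped by strain. The values deposited by the authors are FPKM, per the file headers, rounded to 2 decimals. Per the labels' protocols, cDNA was cut with NlaIII and MmeI into short tags, which have a fixed site per transcript and need no division by gene length, so protocol and unit do not match. Fold changes of a gene would be altered by that only through the pseudocount and the filter. The sources used here name no aligner, counting tool, build or annotation. Whole-read steps were found in 48 of 2531 low genes within 0.2 reads, and placed the relative depth of every library within 2.99% of their mean. Only genes that fitted such steps at equal depth were kept, so this closeness follows largely from the selection. The search assumed similar depths, so depth remains unknown and no counting interval was computed.

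Genes with at least 1 FPKM in at least 3 libraries were kept (9099; 37 genes were at 0 in every library). limma 3.58.1 (R 4.3.3) was fitted to log2(FPKM + 1) of all 9 libraries, with 1 mean per strain, trend and robust options, two-sided, with Benjamini-Hochberg adjustment over all tested genes at 0.05. The test was tried on simulated data. Replicate columns were compared and none were identical, so all 9 libraries were counted. Alternatives covered the pseudocount, filter, scaling, weights, libraries and replicate block. Every gene of the stretch, the 3 on each side of it, and any gene called higher in the deletion strain or changed in recovery against wild type got values per library. PDE_00780, PDE_00816 and PDE_00817 were added after their values were seen. The members, lists and tests were chosen with earlier results of these data known. Summaries used pandas 2.3.3, numpy 2.4.6 and scipy 1.17.1 in Python 3.11.15, and plots matplotlib 3.10.9.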

Additional observations from a re-analysis of the deposited data

How the results depend on the processing

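The stretch held 23 to 25 genes and began at PDE_00789 in every setting for which it was located, among them other pseudocounts (0.1 and 5), other filters (none, or 5 FPKM), other scalings (TPM, median centring, quantiles), plain limma moderation, and runs that allowed 1 gene without a call. It had 24 genes with array weights and when deletion replicate 2 was left out. Runs that allowed 1 gene without a call could not reach back to PDE_00786. PDE_00787 and PDE_00788, neither called lower, both lie between it and the stretch. Window genes lower in the deletion strain numbered 24 against the wild type and 25 against the recovery strain. These counts were 24 to 28 and 24 to 30 when 1 library was left out, 28 and 32 with array weights, and 30 and 33 without both libraries that stood apart. Lower calls over all tested genes were 1012 and 1462 of 9099 in the main fit. With 1 library left out they lay between 649 and 1601 and between 916 and 2234. They rose to 1834 and 2976 of 9099 with array weights and to 2319 and 2809 of 9025 without both libraries.

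Window genes that differed between recovery and wild type numbered 1, PDE_00786. They were 2 after rescaling to TPM, 19 with array weights, 9 without both libraries that stood apart, and 1 to 2 when 1 library was left out, always higher in the recovery strain. Over all tested genes, calls numbered 143 of 9099 in the main fit and 150 after rescaling to TPM. They numbered 2659 with array weights, 2544 of 9025 without both libraries, and 31 to 683 when 1 library was left out. The cause of these shifts was not tested. The estimation of the array weights stopped before it reached its tolerance. In recovery against wild type, 21 genes of the stretch were above 0 on the log2 scale in the main fit. They numbered 22 with array weights, 19 after median centring, and 18 to 22 when 1 library was left out. The lowest number came without wild-type replicate 1.

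Replicate numbers were treated as names only. Deviations of libraries with the same number correlated at -0.106 to 0.222, over 0.1 in 3 of 9 pairs, and 6 of 9 samples correlated best with their own number. A fit with a replicate block gave the same counts, 24, 25 and 1, and a stretch of 23 genes. Changes of sign were followed from PDE_00786 to PDE_00814 and not in the other window genes. Values without a call changed sign 4 times in deletion against recovery and 10 times in recovery against wild type over all settings. Of the called values, 0 reversed. Limits set by absolute depth were not estimated.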
